A study of Mus musculus with 12 samples.

Results

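The genes examined here are 10 genes of de novo lipogenesis, chosen by name as the enzymes that build fatty acids and the factors that switch those enzymes on. All 10 were found by symbol among the 54532 mouse genes of the count table, each as 1 row with a value in all 12 libraries. De novo lipogenesis turns carbon from glucose into fatty acids in the cytosol, mainly in liver and in fat. Citrate leaving the mitochondrion is split by Acly into acetyl-CoA, the acetyl-CoA carboxylases Acaca and Acacb make malonyl-CoA, Fasn builds palmitate from it, and Elovl6 and the desaturases Scd1 and Scd2 lengthen and desaturate the product. Insulin acts on these genes through Srebf1, which encodes SREBP-1, and glucose through Mlxipl, which encodes ChREBP, while Thrsp (Spot 14) is a small protein induced by thyroid hormone and carbohydrate that accompanies lipogenesis.

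RNA was sequenced from liver and from subcutaneous fat of male mice after 1 intravenous dose of an adeno-associated virus (serotype AAV8) at 10 weeks of age and 16 weeks on a low-fat diet. The hHKDC1 OE mice received a vector that carries full-length human HKDC1, a hexokinase, under the hepatocyte promoter of thyroxine-binding globulin, and the null mice received the same vector with the promoter and without HKDC1. The promoter drives the transgene in the liver, not in fat. The fat libraries address the smaller subcutaneous depots that the study saw in hHKDC1 OE mice. There were 3 libraries for each tissue and vector. The strain, the feeding state at RNA collection and whether the liver and fat libraries come from the same mice are not given in the sources used here. The count table lists mouse genes, so the human transgene was not analysed here and the labels were not checked by it.

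The titles and treatment labels place all 3 vector-treated libraries of a tissue in the hHKDC1 OE group, whereas the description of replicates 2 and 3 in each tissue calls them knockouts and that of replicate 1 calls it overexpression. Results are therefore also given for replicate 1 alone. The counts on genes were 15496019 to 19954971 per library. The marker genes followed the labelled tissue. The summed level of 8 adipocyte markers was 20496 to 30599 CPM (each count as a share of the normalized library size, scaled as counts-per-million) in fat and 19.5 to 47.5 in liver, and that of 10 hepatocyte markers was 113867 to 116842 in null liver and 70576 to 96418 in hHKDC1 OE liver. Hepatocyte RNA was also counted in fat, where the same sum was 2870 to 8186 in null fat and 909 to 2231 in hHKDC1 OE fat. In bulk tissue, fewer cells of a type and less RNA per cell cannot be told apart.

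The genes are spread over 5 chromosomes (GRCm38 coordinates of the count table). Fasn (chr11:120805846-120824547), Acaca (chr11:84129672-84401651), Acly (chr11:100476353-100528000) and Srebf1 (chr11:60199089-60222581) lie on chromosome 11. Scd1 (chr19:44394451-44407709) and Scd2 (chr19:44293676-44306864) lie close together on chromosome 19. Acacb (chr5:114146535-114250761) and Mlxipl (chr5:135089890-135138382) lie on chromosome 5, Thrsp on chromosome 7 (chr7:97412938-97417730) and Elovl6 on chromosome 3 (chr3:129532355-129638495).

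In null mice, Fasn, Acaca and Scd2 were higher in null fat than in null liver and Elovl6, Mlxipl and Thrsp were lower, so 3 passed an adjusted p under 0.05 as higher, beside 33.8% of all 15259 genes tested, and 3 as lower, beside 30.5%. Together 6 of 10 passed, beside 64.3% of all genes, so the share that differed was close to that of genes at large. Levels are compared between the tissues here as FPKM (fragments per kilobase of transcript, divided by the authors' scale of each library), since CPM were scaled within a tissue. Scd2 differed most, at 184, 137 and 98.5 FPKM in the null fat libraries and 0.936, 1.16 and 1.25 in null liver, a difference of 6.91 on the log2 scale (SE 0.33, adjusted p = 3.03e-06, edgeR, quasi-likelihood, Benjamini-Hochberg over all genes tested). Fasn was 633, 513 and 416 FPKM in null fat against 204, 72.1 and 43.1 in null liver, or 2.25 higher on the log2 scale (SE 0.56, adjusted p = 0.00824, edgeR). Acaca was 43.1, 43.1 and 29.3 FPKM against 17.5, 10 and 8.27, or 1.65 higher (SE 0.31, adjusted p = 0.00221, edgeR). No null fat library of these 3 genes overlapped null liver. Elovl6 was 20.7, 15.5 and 12.4 FPKM in null fat against 75.7, 40.8 and 35.6 in null liver, and Mlxipl 9.13, 13 and 15.4 against 23.6, 44.3 and 48.7. Elovl6 and Mlxipl were thus each lower in fat without overlap, with log2 differences of -1.69 (SE 0.32, adjusted p = 0.00221, edgeR) and -1.69 (SE 0.31, adjusted p = 0.00191, edgeR). Thrsp, at 376, 291 and 385 FPKM against 1083, 578 and 545, was also lower, by a log2 difference of -1.12 (SE 0.30, adjusted p = 0.0119, edgeR). Srebf1 at -0.78 (adjusted p = 0.0564, edgeR), Scd1 at 0.72 (adjusted p = 0.194, edgeR), Acacb at -0.22 and Acly at -0.17 did not pass. Srebf1 was -0.45 without null liver replicate 1 (adjusted p = 0.184, edgeR) and passed without null liver replicate 3 at -1.08 (adjusted p = 0.0053, edgeR), and Scd1 passed without null liver replicate 1 at 1.14 and without null fat replicate 3 at 0.85 (adjusted p = 0.0457, edgeR). Under scaling by library size alone the median of all genes moved from 0.09 to 0.98, and with it the log2 difference of Acacb to 0.67, of Acly to 0.73 and of Srebf1 to 0.13, so these directions hold only relative to the other genes. Thrsp at -0.21 (adjusted p = 0.524, edgeR) and Mlxipl at -0.81 (adjusted p = 0.0565, edgeR) no longer passed under that scaling, Elovl6 at -0.80 still did, and Scd1 at 1.62 passed (adjusted p = 0.0128, edgeR).

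Compared per length as FPKM, Scd1 was the most abundant of the 10 in every group, with 4896 ± 2269 in null liver and 8323 ± 1146 in null fat (SD, n = 3 each). Thrsp came next in null liver at 735 ± 302 FPKM and Fasn next in null fat at 521 ± 109 FPKM, and neither overlapped its neighbours in that order. In null liver the libraries of Acly, Fasn, Srebf1, Elovl6, Mlxipl and Acacb overlapped from each gene to the next, with means from 116 FPKM for Acly down to 28 for Acacb. Acaca at 11.9 ± 4.9 FPKM and Scd2 at 1.12 ± 0.161 FPKM came last in null liver, without overlap. The 10 genes together took 1.47% to 2.97% of the counts in null liver and 5.64% to 6.92% in null fat, most of it Scd1.

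**Figure D1:**
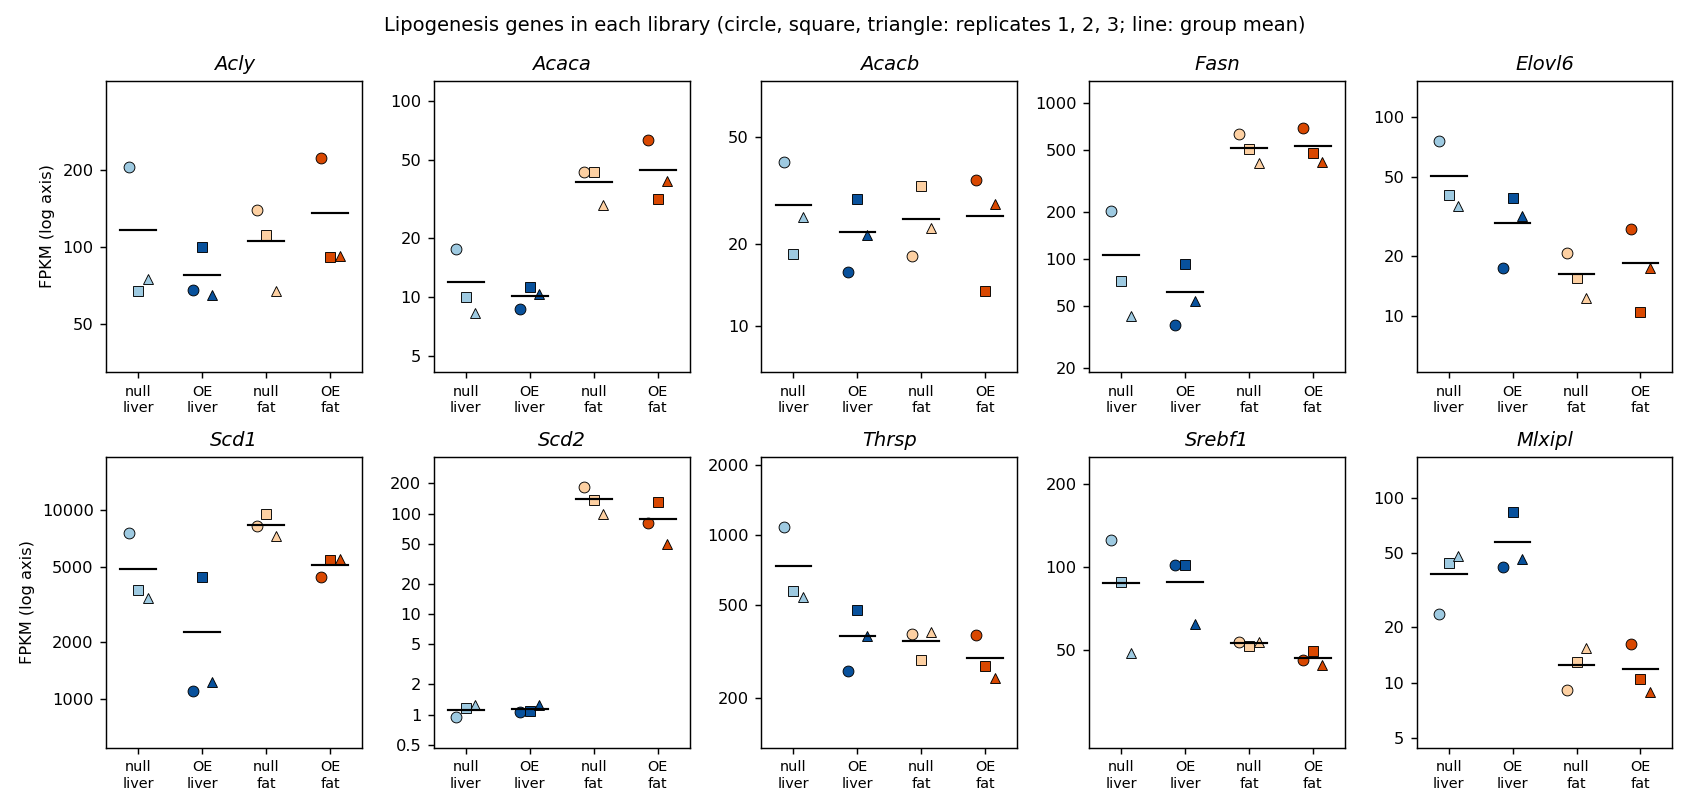
FPKM of each lipogenesis gene (log axis, a scale of its own for each gene) in the 12 libraries, by tissue and vector, with OE for hHKDC1 OE. Points are libraries and lines are group means. Scd2 sits near 1 FPKM in all liver libraries and at 50.3 or above in all fat libraries, and the Scd1 points of hHKDC1 OE fat all lie below those of null fat.

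Scd1 exceeded Scd2 in all 12 libraries, by a ratio that differed between the tissues, while Acacb exceeded Acaca in liver and Acaca exceeded Acacb in fat. The FPKM of Scd1 over that of Scd2 was 8017, 3241 and 2732 in the null liver libraries and 44.5, 69.5 and 73.7 in the null fat libraries. The ratio was 67.8-fold higher in liver (geometric means), with no overlap (p = 0.1 in a two-sided exact permutation test, the lowest p that 3 against 3 allow). Acaca, whose malonyl-CoA feeds synthesis, over Acacb, whose malonyl-CoA at the mitochondrion restrains fatty acid oxidation, was 0.435, 0.545 and 0.327 in null liver and 2.36, 1.31 and 1.27 in null fat. This ratio was 3.70-fold higher in fat, again without overlap (two-sided exact permutation test, p = 0.1). With hHKDC1 OE the ratio of Acaca to Acacb was 0.470 ± 0.0837 in liver and 1.85 ± 0.475 in fat (SD, n = 3 each), and the ranges overlapped those of the null libraries in each tissue (p = 0.6 in liver and p = 0.6 in fat, exact permutation tests). The ratio of Scd1 to Scd2 in hHKDC1 OE liver was 1035, 4084 and 993, which overlapped null liver (exact permutation test, p = 0.3). Scd1 and Scd2 are related genes, so reads that fit both could have been lost, and the share of such reads was not measured.

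**Figure D2:**
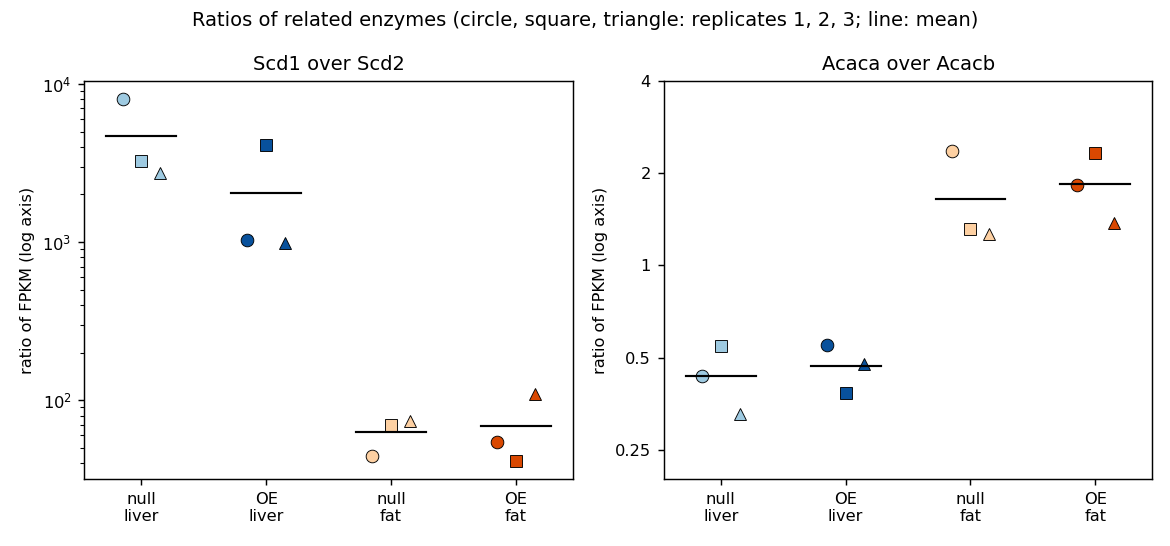
Ratio of the FPKM of Scd1 to Scd2 and of Acaca to Acacb in each library (log axes), by tissue and vector, with OE for hHKDC1 OE. The liver and fat libraries separate in both panels, and the null and hHKDC1 OE libraries overlap within each tissue.

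In liver, none of the 10 genes passed the adjusted threshold between hHKDC1 OE and null mice, and neither did any of the 13351 genes tested (0%) in edgeR's test. Of the 10, 7 had lower values with hHKDC1 OE, beside 48.9% of all genes, and the median log2 fold change was -0.40 beside 0.01 over all genes tested. Without null replicate 1, 4 of 10 were lower and the median was 0.08, so the downward lean of the group depends on that library. At an unadjusted p under 0.05 there was 1 of 10, Thrsp, beside 6.94% of all genes. DESeq2 called 1 of 10, also Thrsp, and 93 of all genes. Marker genes also moved between the liver groups. The hepatocyte sum did not overlap (113867 to 116842 CPM in null and 70576 to 96418 in hHKDC1 OE liver). Most of that sum was Alb, at 68947 to 75133 CPM in null and 38058 to 50370 in hHKDC1 OE liver. Of the 10 markers 6 were lower, Alb among them, and 4 were higher. Of 4 macrophage markers, 3 were higher, among them Cd68 at a log2 fold change of 0.80 without overlap and Csf1r at 0.70, and their sum was 59.5 to 70.7 CPM in null and 60.2 to 105 in hHKDC1 OE liver. None of these markers passed the adjusted threshold, and their part in the liver values of the lipogenesis genes was not tested. With replicate 1 as the only hHKDC1 OE library, 8 of 10 were lower, the median was -0.78 and 0 of 10 were called, with 76 of all genes called. The log2 fold changes were then -2.13 for Scd1, -1.52 for Elovl6, -1.49 for Thrsp, -1.48 for Fasn, -0.81 for Acacb, -0.75 for Acly, -0.44 for Acaca, -0.05 for Scd2, 0.13 for Mlxipl and 0.23 for Srebf1, the lowest adjusted p being 0.0896 for Scd1 (edgeR).

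The first steps of the pathway leaned downward in liver within a wide spread. Acly, which supplies acetyl-CoA, was 771, 263 and 297 CPM in null liver and 264, 404 and 256 in hHKDC1 OE liver. Null replicate 1 stood above the other 5 libraries, which overlapped. The log2 fold change was -0.52 (SE 0.39, adjusted p = 0.848, edgeR). Acaca was 213, 126 and 106 CPM in null liver and 109, 147 and 132 in hHKDC1 OE liver, with a log2 fold change of -0.20 (SE 0.25). Acacb was 276, 131 and 182 CPM against 112, 216 and 156, with a log2 fold change of -0.28 (SE 0.30). In each of these genes the highest library was null replicate 1, and the groups overlapped.

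Fasn, the multifunctional synthase, was 1595, 583 and 352 CPM in null liver and 303, 780 and 441 in hHKDC1 OE liver. The libraries of a group differed from each other by up to 4.53-fold, more than the groups did. The log2 fold change was -0.73 (SE 0.52, adjusted p = 0.838, edgeR). Without null replicate 1 the log2 fold changes of Fasn, Acaca, Acacb and Acly turned to 0.12, 0.16, 0.04 and 0.14.

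Of the genes that finish the fatty acid, Scd1 had the lowest log2 fold change of the 10 in liver, Elovl6 equalled Fasn and Scd2 was near 0. Elovl6, which lengthens palmitate, was 348, 194 and 171 CPM in null liver and 83.0, 192 and 153 in hHKDC1 OE liver. Only the highest hHKDC1 OE library reached into the null range, and the log2 fold change was -0.73 (SE 0.34, adjusted p = 0.725, edgeR). Scd1, which makes oleate and palmitoleate, was 25909, 13480 and 12318 CPM in null liver and 3950, 16375 and 4464 in hHKDC1 OE liver. Replicates 1 and 3 of hHKDC1 OE lay below every null library while replicate 2 lay among them. The log2 fold change of Scd1 was -1.06 (SE 0.54, adjusted p = 0.764, edgeR), and without hHKDC1 OE replicate 2 it was -2.03 with an adjusted p of 0.0198 (edgeR). Scd2 was at 3.64 to 5.08 CPM in null liver and 4.30 to 5.07 in hHKDC1 OE liver, from 59 to 95 counts per library, with a log2 fold change of 0.05 (SE 0.25).

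Thrsp was the only one of the 10 whose liver groups did not overlap. It was 1692, 934 and 891 CPM in null liver and 419, 797 and 602 in hHKDC1 OE liver, so every hHKDC1 OE library lay below every null library, as did 6.18% of all genes tested. The log2 fold change was -0.95 (SE 0.30, unadjusted p = 0.0117, adjusted p = 0.586, edgeR), and the two-sided exact permutation test gave p = 0.1, the smallest possible. Without null replicate 1 the liver values of Thrsp, Scd1 and Elovl6 were -0.59, -0.64 and -0.35. The adjusted p of Thrsp was 0.0392 in DESeq2 and 0.000971 in edgeR with no filter on low counts, where Fasn, Scd1 and Elovl6 passed as well (4 of 10, with 327 of all genes called).

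Of the 2 transcription factors, Srebf1 had a log2 fold change near 0 in liver, while that of Mlxipl was above 0 and larger in size than that of Acly. Neither was tested against the other 8 genes. Srebf1 was 504, 366 and 205 CPM in null liver and 420, 436 and 262 in hHKDC1 OE liver, a log2 fold change of 0.06 (SE 0.31), which was -0.22 without null replicate 3. Mlxipl was 93.3, 181 and 201 CPM in null liver and 173, 353 and 195 in hHKDC1 OE liver. Here null replicate 1 was the lowest library and hHKDC1 OE replicate 2 the highest. The log2 fold change of Mlxipl was 0.60 (SE 0.33, adjusted p = 0.788, edgeR), and 0.21 without hHKDC1 OE replicate 2. Srebf1 was counted as a whole gene, so its forms with different first exons are not resolved.

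**Figure D3:**
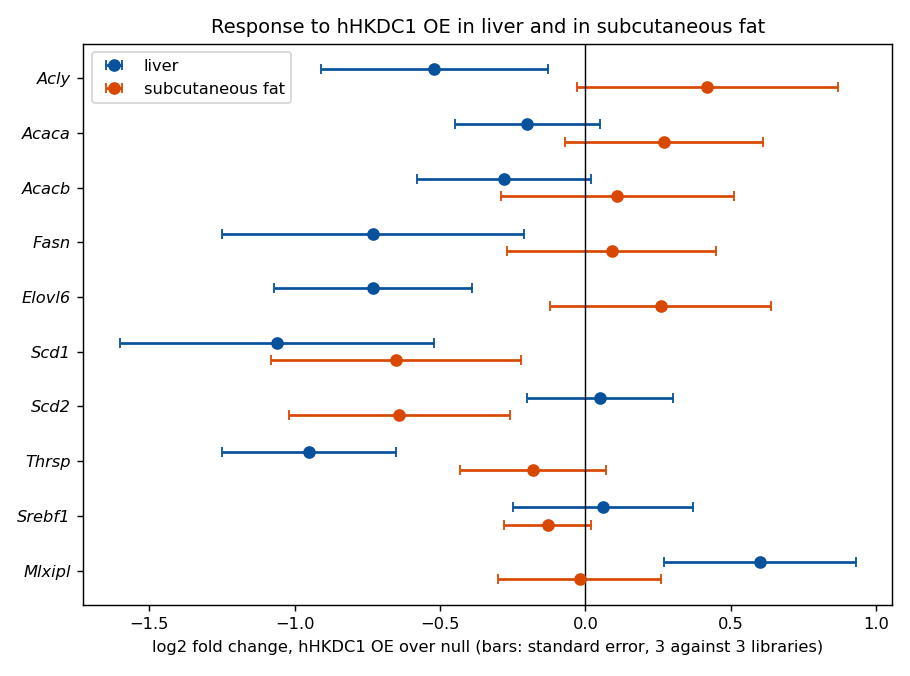
Log2 fold change of hHKDC1 OE over null for the 10 lipogenesis genes in liver (blue) and in subcutaneous fat (orange), with standard errors from edgeR, 3 against 3 libraries. In liver 7 of 10 points lie below 0 and in fat 5 of 10, and no point passed the adjusted threshold.

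Many of the lipogenesis genes were highest or lowest in the same liver libraries. Null replicate 1 was the highest of the 3 null libraries for 8 of 10 genes, beside 36.7% of all genes tested, the exceptions being Scd2 and Mlxipl, in which it was the lowest. hHKDC1 OE replicate 2 was the highest of its group for 9 of 10, beside 38.1% of all genes, and hHKDC1 OE replicate 1 was the lowest for 8 of 10, beside 34.7%. Averaged over the 10 genes, the log2 level relative to each gene's mean over the 6 liver libraries was 0.66, 0.00 and -0.13 in the null libraries and -0.55, 0.32 and -0.30 in the hHKDC1 OE libraries. The 10 genes took 0.546% to 2.14% of the counts in hHKDC1 OE liver, against 1.47% to 2.97% in null liver.

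The genes whose profile over the 6 liver libraries was most like this average, by the root mean square difference in log2 level, included Ccne2, Mxra8, Gm14584 and Dnase1l1. Their differences were 0.0374 for Ccne2 to 0.105 for Dnase1l1, beside a median of 0.462 over the 12235 genes compared. The lipogenesis genes themselves lay at 0.196 for Acaca, 0.196 for Acacb, 0.275 for Elovl6, 0.276 for Acly and 0.307 for Thrsp, and at 0.430 for Srebf1 and 0.436 for Fasn, near that median. Scd2 at 0.501, Scd1 at 0.631 and Mlxipl at 0.764 lay beyond it, so the average describes some of the 10 genes and not all. Ccne2 lies at 1.86 CPM and Gm14584 at 2.02, so their levels rest on few counts.

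**Figure D4:**
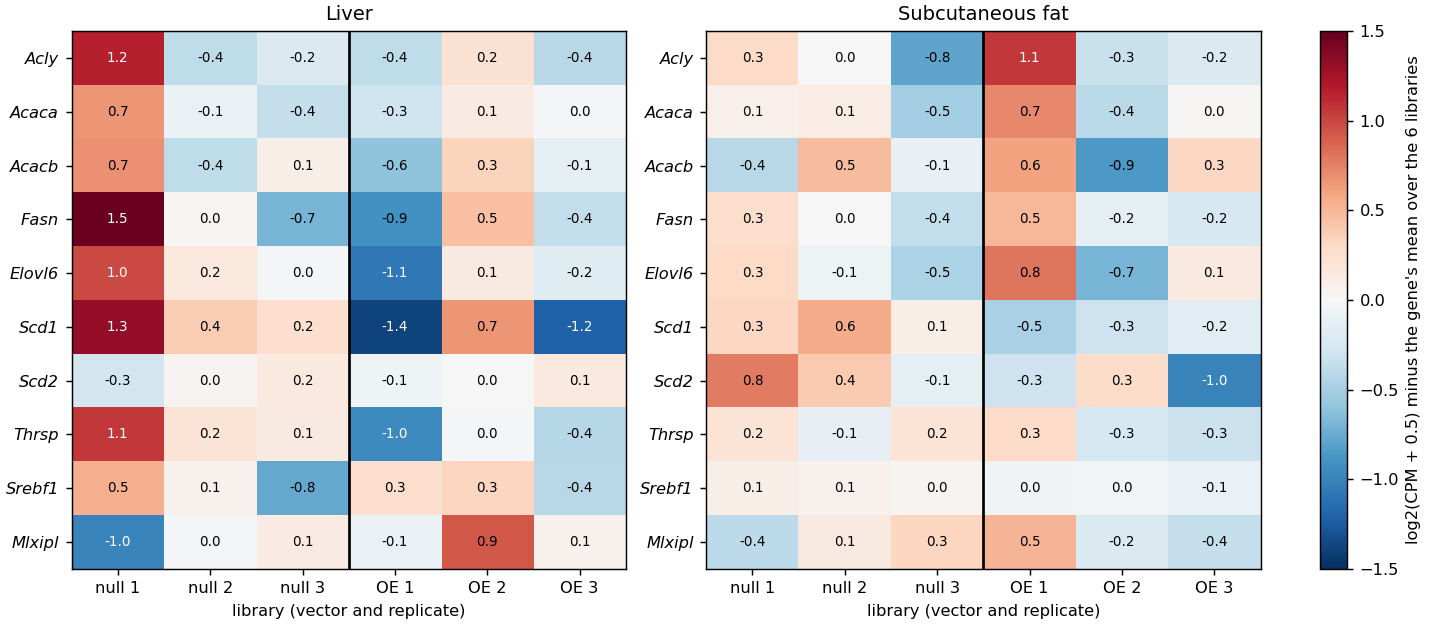
Log2 level, as log2(CPM + 0.5), of each lipogenesis gene in each library minus the gene's mean over the 6 libraries of that tissue, in liver (left) and subcutaneous fat (right). The column of null liver replicate 1 is red for 8 genes and blue for Scd2 and Mlxipl, and that of hHKDC1 OE fat replicate 1 is red for 7 genes.

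The promoters of 2 genes with unlike liver profiles are shown for the sequence motifs of known regulators of this pathway. They are the 250 bases before the start of Fasn, highest in null liver replicate 1, and of Mlxipl, lowest there, from RefSeq (GRCm38.p6), each on its gene's own strand. Capitals mark CCAAT, bound by NF-Y, on either strand (ATTGG on the other), and CACGTG, an E-box. The Fasn window lies at chr11:120824548-120824797 on the minus strand and the Mlxipl window at chr5:135089640-135089889 on the plus strand.
Fasn: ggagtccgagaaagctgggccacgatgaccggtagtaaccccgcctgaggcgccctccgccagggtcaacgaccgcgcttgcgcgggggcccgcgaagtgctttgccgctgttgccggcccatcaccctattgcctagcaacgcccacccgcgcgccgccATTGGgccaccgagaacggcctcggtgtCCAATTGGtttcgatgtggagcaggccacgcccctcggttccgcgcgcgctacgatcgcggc
Mlxipl: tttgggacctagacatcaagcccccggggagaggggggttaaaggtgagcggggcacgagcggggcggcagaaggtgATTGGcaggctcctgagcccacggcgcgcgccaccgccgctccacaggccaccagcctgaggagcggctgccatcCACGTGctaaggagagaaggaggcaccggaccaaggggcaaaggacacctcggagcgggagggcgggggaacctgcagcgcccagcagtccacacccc
The Fasn window holds CCAAT at 3 places, 2 of them overlapping on opposite strands, and the Mlxipl window holds it at 1 place, with CACGTG at -98 to -93 from the start. RefSeq windows were found for 8 of the 10 genes, with 11 starts between them. CCAAT was at 6 of these 11 starts (of Acacb, Fasn, Mlxipl, Srebf1 and Thrsp), beside 33.8% of all 32851 starts. CACGTG was at 1 of 11, of Mlxipl, beside 6.02% of all starts. The sterol element TCACNCCAC was likewise at 1 of 11, another start of Mlxipl, beside 1.05% of all starts. Whether any of these motifs bears on the liver profiles was not tested.

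In subcutaneous fat, none of the 10 genes passed the adjusted threshold, nor did any of the 16380 genes tested (0%) in edgeR's test. Of the 10, 5 had higher and 5 had lower values with hHKDC1 OE, beside 53.9% of all genes with lower values, and the median log2 fold change was 0.03 beside -0.05 over all genes. None had an unadjusted p under 0.05, beside 17.7% of all genes, and DESeq2 called 0 of 10 and 1452 of all genes. Without hHKDC1 OE replicate 1 all 10 were lower, with a median of -0.19. With that library alone against the null libraries 7 of 10 were higher, with a median of 0.48, and 0 of 10 were called, with 1024 of all genes called. The log2 fold changes were then 1.15 for Acly, 0.84 for Elovl6, 0.79 for Acaca, 0.56 for Acacb, 0.50 for Fasn, 0.45 for Mlxipl, 0.18 for Thrsp, -0.12 for Srebf1, -0.71 for Scd2 and -0.83 for Scd1, the lowest adjusted p being 0.174 for Acly (edgeR). Under scaling by library size alone 7 of 10 were higher, with the median of all genes at 0.11.

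With all 6 libraries in edgeR's test, the desaturases had the largest differences of the 10 genes in fat. With replicate 1 as the only hHKDC1 OE library, Acly had the largest, at 1.15. Scd1 was 53435, 63527 and 46335 CPM in null fat, against 30778, 34748 and 38282 with hHKDC1 OE. Every hHKDC1 OE library lay below every null library, as for 10.2% of all genes tested. The log2 fold change was -0.65 (SE 0.43, adjusted p = 0.449, edgeR), and the two-sided exact permutation test gave p = 0.1, the smallest possible. Scd2 was 1355, 1031 and 709 CPM in null fat, against 636, 953 and 393 with hHKDC1 OE. The groups overlapped through hHKDC1 OE replicate 2, and the log2 fold change was -0.64 (SE 0.38, adjusted p = 0.404, edgeR). It was -1.01 without that library and -0.38 without hHKDC1 OE replicate 3.

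Srebf1, the insulin-responsive factor, had the tightest groups in fat. It was 406, 400 and 396 CPM in null fat, against 371, 372 and 358 with hHKDC1 OE, without overlap but with a log2 fold change of only -0.13 (SE 0.15, adjusted p = 0.662, edgeR). Under scaling by library size alone this value was 0.03, so its direction in fat depends on the scaling. Mlxipl was 68.3, 99.0 and 113 CPM in null fat, against 128, 77.7 and 70.5 with hHKDC1 OE, with a log2 fold change of -0.02 (SE 0.28) that other scalings turned above 0. Thrsp was 1111, 879 and 1111 CPM in null fat, against 1176, 799 and 771 with hHKDC1 OE, a log2 fold change of -0.18 (SE 0.25) with overlapping groups, which was -0.40 without hHKDC1 OE replicate 1 and -0.06 without replicate 3.

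The synthetic steps overlapped between the groups in fat, and hHKDC1 OE replicate 1 was the highest of the 6 libraries in each. Acly was 991, 806 and 469 CPM in null fat, against 1689, 640 and 696 with hHKDC1 OE, a log2 fold change of 0.42 (SE 0.45) that was -0.18 without that replicate. Fasn was 9359, 7743 and 6012 CPM in null fat, against 10966, 6998 and 6560 with hHKDC1 OE, a log2 fold change of 0.09 (SE 0.36). Acaca was 994, 1015 and 661 CPM against 1549, 714 and 953, with a log2 fold change of 0.27 (SE 0.34). Acacb was 237, 438 and 293 CPM against 479, 173 and 391, with a log2 fold change of 0.11 (SE 0.40). Elovl6 was 180, 138 and 105 CPM against 254, 89.7 and 161, with a log2 fold change of 0.26 (SE 0.38). Without hHKDC1 OE replicate 1 these were -0.19 for Fasn, -0.09 for Acaca, -0.19 for Acacb and -0.17 for Elovl6.

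Averaged over the 10 genes, the log2 level relative to the 6 fat libraries was 0.15, 0.15 and -0.17 in the null libraries and 0.36, -0.30 and -0.19 in the hHKDC1 OE libraries. The genes most like this average in fat were Rrp12, Lrrc61, Ints9, Thap6 and Cyc1, with root mean square differences of 0.0431 for Rrp12 to 0.0803 for Cyc1 beside a median of 0.391 over 14951 genes. Their own log2 fold changes lay between -0.11 and -0.01.

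Marker genes of other cells differed between the fat groups, although none of them passed the adjusted threshold in edgeR's test. The 8 B cell markers summed to 1.86 to 3.74 CPM in null fat and 50.0 to 896 in hHKDC1 OE fat, and the 7 T cell markers to 5.39 to 14.2 and 37.1 to 514, with every one of these 15 markers higher in each hHKDC1 OE library. The adipocyte sum overlapped, at 22430 to 30599 CPM in null fat and 20496 to 28588 in hHKDC1 OE fat. The 5 skeletal muscle markers summed to 16445, 20026 and 477 CPM in null fat, against 14577, 992 and 2253 with hHKDC1 OE. Their 3 high libraries are also the 3 in which the average of the lipogenesis genes was above 0. The 5 epithelial markers summed to 104, 16.5 and 57.7 CPM in null fat and to 9.66 to 11.4 with hHKDC1 OE, without overlap of the sums. Singly they did not all follow the sum. Krt5 overlapped, at 4.22 CPM in null replicate 2 and 6.79 in hHKDC1 OE replicate 2, and Epcam was higher, at a log2 fold change of 1.38. The 4 macrophage markers summed to 98.7 to 218 CPM in null and 176 to 291 in hHKDC1 OE fat, which overlapped. Of the 5 brown fat markers 4 had higher means with hHKDC1 OE, while Elovl3 was lower, at a log2 fold change of -1.28 (SE 0.72). Ucp1, the uncoupling protein of thermogenic fat, was 0.122, 1.24 and 0.0535 CPM in null fat, against 72.4, 4.45 and 20.8 with hHKDC1 OE (adjusted p = 0.133, edgeR), and Dio2, which activates thyroid hormone, was 1.52, 0.372 and 1.07 CPM against 2.18, 1.76 and 2.40. Their sum, most of it Cidea and Cox8b, overlapped at 52.2 to 138 and 74.0 to 302 CPM. No marker of these lists was at 0 in all fat libraries. The part of these cells in the fat values of the lipogenesis genes was not tested. For hepatocyte RNA an estimate was computed. The hepatocyte sum in null fat replicate 3 was 7.28% of the mean null liver sum, and 0.857% to 2.37% of it in the other fat libraries. With each gene at its mean null liver level, such RNA would supply up to 0.0449% of Scd2 in a fat library and 2.62% of Scd1. For Mlxipl it was up to 10.1% and for Elovl6 15.9%, the highest share being in null fat replicate 3 for each gene. The null liver libraries spread around that mean, so these are estimates and not upper limits.

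The liver and the fat response were compared gene by gene as fat minus liver, over all 12 libraries. None of the 10 differed at an adjusted p under 0.05, and neither did any of the 17070 genes tested (0%) in edgeR's test. None of the 10 had an unadjusted p under 0.05, beside 12.7% of all genes, and DESeq2 called 0 of 10 and 499 of all genes. The fat response was the higher in 7 of 10, beside 52.3% of all genes, with a median difference of 0.53 on the log2 scale beside 0.03 over all genes. Without null liver replicate 1 the median was 0.10, and without hHKDC1 OE fat replicate 1 it was 0.16. With replicate 1 as the only hHKDC1 OE library of each tissue, the fat response was the higher in 8 of 10, the median was 1.42 and 0 of 10 were called, with 126 of all genes called. Elovl6 then differed by 2.44, Fasn by 2.07 and Acly by 1.99.

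By gene, 5 of the 10 had a lower mean in liver and a higher one in fat (Acly, Acaca, Acacb, Fasn and Elovl6), 2 were lower in both (Scd1 and Thrsp) and 3 were higher in liver and lower in fat (Scd2, Srebf1 and Mlxipl). Elovl6 had the largest difference between the responses, 1.09 (SE 0.58, unadjusted p = 0.0877, adjusted p = 0.462, edgeR). Acly followed with 1.04 (SE 0.68, adjusted p = 0.559, edgeR), Fasn with 0.92 (SE 0.74) and Thrsp with 0.87 (SE 0.45, unadjusted p = 0.0793, adjusted p = 0.448, edgeR). Without hHKDC1 OE fat replicate 1 the difference was 0.49 for Elovl6 and 0.29 for Acly, and without null liver replicate 1 it was 0.03 for Fasn and 0.48 for Thrsp, so neither the sizes nor their order held without single libraries. Scd1, the lipogenesis gene with the lowest mean response in each tissue, differed by 0.50 between them (SE 0.80), and by 0.06 without null liver replicate 1. Scd2 at -0.62 (SE 0.44), Mlxipl at -0.53 (SE 0.50) and Srebf1 at -0.10 (SE 0.41) had the lower response in fat. Without single libraries the difference ranged from -1.18 to -0.48 for Scd2 and from -1.0 to -0.17 for Mlxipl, the lowest being without hHKDC1 OE fat replicate 2 for Scd2 and replicate 1 for Mlxipl.

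The neighbouring parts of the pathway were counted in the same fits, and no gene of any of the 5 lists passed the adjusted threshold in liver or in fat. Of 9 genes that supply acetyl-CoA and NADPH, 9 had lower means in liver with hHKDC1 OE (7 of 9 under scaling by library size alone), the median being -0.22 on the log2 scale, and 6 of 9 in fat. Mpc1, a subunit of the mitochondrial pyruvate carrier, was 39.6, 44.0 and 32.7 CPM in null liver and 31.3, 25.5 and 26.7 in hHKDC1 OE liver, without overlap and with a log2 fold change of -0.48 (SE 0.16, adjusted p = 0.595, edgeR). Me1, the malic enzyme that yields NADPH, was -0.34 on that scale in liver (SE 0.43), with null replicate 1 the highest library at 674 CPM, and 0.37 without it.

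Of 19 genes that control SREBP-1 and ChREBP, 15 had higher means in liver, with a median of 0.04, and 8 of 19 in fat (13 of 19 under scaling by library size alone). Ppargc1b, a coactivator of SREBP-1, had a log2 fold change of 0.66 in liver (SE 0.28, adjusted p = 0.690, edgeR). Insig2, which holds SREBP in the endoplasmic reticulum, was 240, 186 and 196 CPM in null liver and 90.3, 172 and 147 in hHKDC1 OE liver, without overlap, at -0.60 (SE 0.23, adjusted p = 0.641, edgeR), and -0.38 without hHKDC1 OE liver replicate 1. In fat Insig2 also did not overlap, at 75.3, 68.6 and 66.7 CPM against 46.1, 57.8 and 49.0, with -0.46 (SE 0.14, adjusted p = 0.179, edgeR), and -0.57 without hHKDC1 OE fat replicate 2 (adjusted p = 0.0266, edgeR).

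Of 10 genes of glucose entry and shared targets, 7 had lower means in liver (5 of 10 under library size alone) and 10 in fat (9 of 10), the medians being -0.11 and -0.97. Pnpla3, a lipid droplet protein and target of SREBP-1, had the lowest log2 fold change of the list in liver, -0.93 (SE 0.78), at 3.77, 0.326 and 2.73 CPM in null liver and 0.799, 2.18 and 0.587 in hHKDC1 OE liver, and it was -0.36 without null replicate 1. Gpd1, which makes glycerol 3-phosphate, was 267, 342 and 291 CPM in null liver and 198, 206 and 264 in hHKDC1 OE liver, without overlap, at -0.43 (SE 0.17, adjusted p = 0.652, edgeR). The list includes genes made mostly by hepatocytes, whose markers were also lower in hHKDC1 OE fat in 10 of 10 cases with a median of -1.52, and the part of hepatocyte RNA in the list's values was not tested. Of 6 other elongation and desaturation genes tested in liver, 5 were lower, with Elovl3 at -0.86 (SE 0.32) and Elovl5 at -0.71 (SE 0.50). Elovl3 was -0.64 without hHKDC1 OE liver replicate 3 and Elovl5 -0.36 without replicate 1. Without hHKDC1 OE liver replicate 2 these were -1.36 (adjusted p = 0.0162, edgeR) and -1.62 (adjusted p = 0.0354, edgeR), and with no filter on low counts the adjusted p-values were 0.000973 and 0.0399 (edgeR). Of 8 genes of triglyceride assembly, 7 were lower in liver and 6 in fat (5 in each under library size alone). Lpin1, a phosphatidate phosphatase, was 697, 966 and 812 CPM in null liver and 300, 469 and 218 in hHKDC1 OE liver, and 730, 991 and 886 CPM in null fat, against 321, 460 and 304 with hHKDC1 OE. Neither pair of groups overlapped, and the log2 fold changes were -1.33 in liver (SE 0.27, adjusted p = 0.355, edgeR) and -1.26 in fat (SE 0.24, adjusted p = 0.133, edgeR). Without replicate 2 of hHKDC1 OE in the tissue, Lpin1 was -1.67 in liver (adjusted p = 0.00694, edgeR) and -1.49 in fat (adjusted p = 0.00401, edgeR). DESeq2 gave Lpin1 adjusted p-values of 4.08e-05 in liver and 0.000138 in fat. Gpam, the first enzyme of glycerolipid synthesis, was 194, 77.9 and 50.2 CPM in null liver and 57.1, 65.6 and 103 in hHKDC1 OE liver, a log2 fold change of -0.51 (SE 0.44) that was 0.23 without null replicate 1. Gpam did not overlap in fat, with 159, 156 and 126 CPM in null fat, against 81.5, 88.7 and 74.5 with hHKDC1 OE, a log2 fold change of -0.85 (SE 0.15, adjusted p = 0.133, edgeR), or -0.92 without hHKDC1 OE fat replicate 2 (adjusted p = 0.0107, edgeR).

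**Figure D5:**
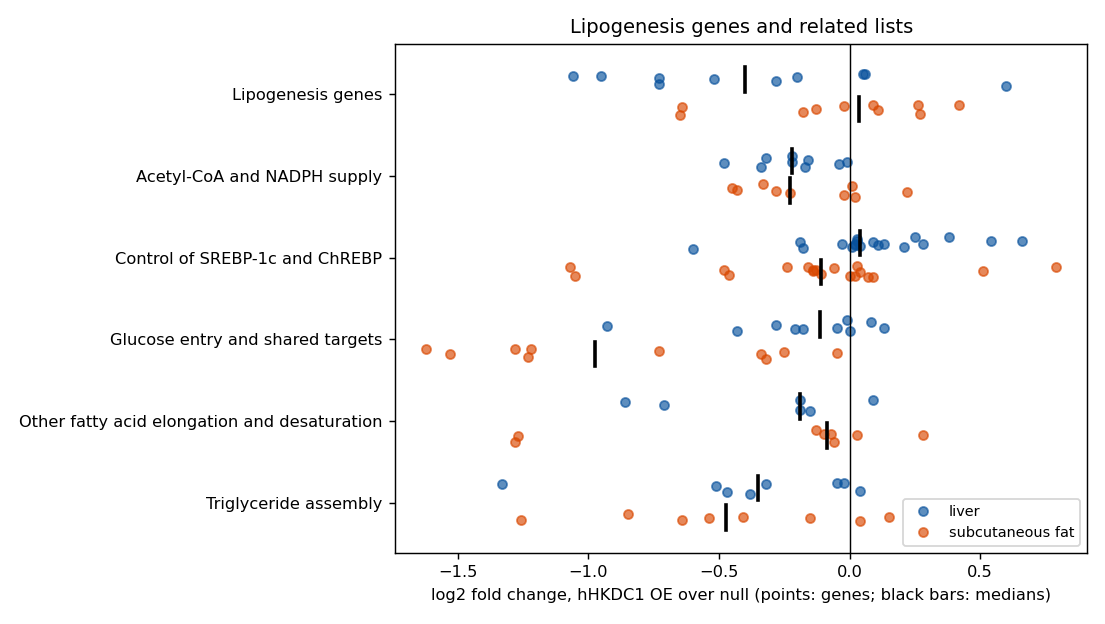
Log2 fold changes of hHKDC1 OE over null for the 10 lipogenesis genes and the tested genes of 5 related lists, in liver (blue) and subcutaneous fat (orange). Each point is a gene and each black bar a list's median, which for the lipogenesis genes is -0.40 in liver and 0.03 in fat.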

How the data were processed

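Liver and subcutaneous fat of null and hHKDC1 OE mice were profiled by RNA-seq, 3 libraries per tissue and vector, grouped by title. Mapping by the authors used STAR, and HTSeq gave the deposited counts, whole numbers per gene from libraries without strand information. The reference is named as human in the methods, but the identifiers are of mouse, and 99.8% are in GENCODE M21 (GRCm38). The deposited FPKM values equal count over gene length over one number per library, to within 1% for 100% of the values above 0. That number is 0.675 to 0.827 of the counts in liver and 1.25 to 1.52 in fat, so FPKM depends on both tissues. Exonic bases shared with other genes were at most 4.24% (Mlxipl).

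Counts were tested with edgeR 4.0.16 in R 4.3.3 (quasi-likelihood, TMM, filterByExpr, Benjamini-Hochberg over all genes tested, called at an adjusted p under 0.05). Each tissue was fitted alone, the difference of the responses over 12 libraries and null fat against null liver over 6. Printed CPM use TMM library sizes within each tissue. Exact permutation tests of 3 against 3 cannot go below p = 0.1. The p-values measure the spread between these libraries. Replicates of a group differed by a chi-square of 21.8 to 173 per gene. Depth was 15496019 to 19954971 counts, and 0 counts would allow up to 3. Most-alike genes were the 5 nearest with a mean of at least 1 CPM, of which 1 in liver is not reported here, and each related list is represented by the 2 tested genes with the largest absolute log2 fold change in liver. Replicate numbers were checked as pairs. In liver the deviations of same-numbered libraries correlated at 0.27, 0.22 and 0.17 over 8715 genes, which passes 0.1 in every pair, and the source of the pairing is not labelled. In fat the values were 0.083, -0.16 and 0.064. Between null liver and null fat they were 0.28, 0.044 and 0.12, and between hHKDC1 OE liver and hHKDC1 OE fat 0.047, 0.093 and 0.071. Scripts were tested on simulated counts. Alternatives were DESeq2 1.42.0, limma 3.58.1 on log2(FPKM + 1) and log2(FPKM + 0.1) where the mean was at least 0.1 FPKM, other scalings and filters, all 12 libraries in 1 fit, the replicate block and each library left out. The genes and lists were chosen with earlier results of these data known. The fit with replicate 1 as the only hHKDC1 OE library was added after seeing the data. The authors' deposited tables of log2 fold changes and p-values were not used.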

Additional observations from a re-analysis of the deposited data

How the results depend on the processing

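Among the lipogenesis genes the number called was 0 in fat and 0 for the difference of the responses under every alternative run, leaving out single libraries included. In liver 0 were called except 1 in DESeq2, 4 with no filter on low counts and 0 to 1 with single libraries left out. Between null fat and null liver the number was 6, with 8 in DESeq2, 5 under library size alone, 7 with no filter, 7 with all 12 libraries and 6 to 7 with single libraries left out. Beside these, calls over all genes were 9810, with 10448, 11298, 10255 and 10179 under the same alternatives in that order, 7339 with at least 10 counts in every library and 8984 to 9671 with single libraries left out. Over all genes, calls in liver went from 0 to 93 (DESeq2), 2 (library size alone), 327 (no filter), 3 and 7 (limma with pseudocounts of 1 and 0.1), 76 (replicate 1 as the only hHKDC1 OE library, assumed to vary like the others) and 0 to 146 (single libraries left out). In fat they went from 0 to 1452 (DESeq2), 803 (no filter), 1 and 1 (limma), 876 (all 12 libraries), 1024 (replicate 1 only) and 0 to 3251, the most without hHKDC1 OE fat replicate 2. For the difference of the responses they went from 0 to 499 (DESeq2), 479 (no filter), 6 (limma, 0.1), 126 (replicate 1 only) and 0 to 1211. The cause was not tested.

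With the replicate number as a block, 0 lipogenesis genes were called in liver, where the numbers pair the libraries, and 17 of all genes. Elsewhere the correlation of same-numbered libraries did not pass 0.1 in every pair, though it was 0.28 for number 1 of null liver and null fat. The block gave 168 calls in fat and 4 for the difference of the responses, with 0 lipogenesis genes.

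Directions turned in fat for Mlxipl (0.01 with upper-quartile scaling, 0.13 with library size, 0.04 with all 12 libraries, 0.45 with replicate 1 only), Me1 (0.01, 0.14, 0.04 and 0.19), Gpd1 (0.11 with library size, 0.01 with all 12 libraries, 0.02 with replicate 1 only), Srebf1 (0.03) and Elovl5 (0.09) with library size, Thrsp (0.18 with replicate 1 only) and Acacb (-0.02 and -0.02 with limma). Scd2 in liver was -0.05 and the difference of the Mlxipl responses 0.40 with replicate 1 only. Between tissues, library size alone gave 0.67 for Acacb, 0.73 for Acly and 0.13 for Srebf1.

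With single libraries left out, the liver log2 fold changes ranged from -1.18 to 0.12 for Fasn, -0.39 to 0.16 for Acaca, -0.55 to 0.04 for Acacb, -0.79 to 0.14 for Acly, -0.08 to 0.15 for Scd2, -0.22 to 0.38 for Srebf1, -0.71 to 0.37 for Me1 and -0.85 to 0.23 for Gpam. In fat they ranged from -0.19 to 0.22 for Fasn, -0.09 to 0.48 for Acaca, -0.19 to 0.42 for Acacb, -0.18 to 0.65 for Acly, -0.17 to 0.55 for Elovl6, -0.33 to 0.15 for Mlxipl, -0.18 to 0.15 for Me1, -0.19 to 0.11 for Gpd1 and -0.32 to 0.34 for Ppargc1b. The difference of the responses ranged from -0.45 to 0.18 for Srebf1, and the null tissues from -0.46 to 0.11 for Acacb and -0.46 to 0.49 for Acly. Scd1 in liver ranged from -2.03 to -0.64 and Thrsp from -1.20 to -0.59. Pnpla3 in liver has no value with at least 10 counts in every library.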
